A study of Mus musculus with 11 samples.

Results

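Capillary endothelial cells (EC) of the perigonadal white adipose tissue (pgWAT), the visceral fat beside the gonads, were selected from the sorted stromal vascular cells by the reads of 9 genes. A cell counted as blood EC when Pecam1, Cdh5 and Kdr reached a sum of 100 CPM, where CPM is a gene's reads per 1000000 gene reads of the cell, with Pdgfra and Pdgfrb each under 20 CPM, C1qa under 50 CPM and Prox1 under 10 CPM. A blood EC counted as capillary when Cd300lg or Car4 reached 50 CPM. This gave 571 capillary EC among 607 blood EC and 3261 cells in all, or 17.51% of the cells.

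The cells came from adult mice on a C57BL6/J background, each carrying the Tg(Pdgfrb-eGFP) reporter, in which Pdgfrb regulatory sequence drives a green fluorescent protein (GFP), and kept on a chow diet. Fat was digested with collagenase, CD45+ cells were gated out, and single cells were sorted into plates by GFP, CD31 (the protein of Pecam1) and DPP4 for Smart-seq2, a full-length protocol that counts reads and not molecules. The labels give 4 male plates from mice 1, 4 and 8 and 7 female plates from mice 2, 3, 5 and 6/7, where 6/7 is 1 label for 2 animals. Capillary EC were found in 5 mouse ids, with 134 and 29 cells in male mice 1 and 8 and 195, 54 and 159 in female mice 2, 5 and 6/7. Mice 3 and 4, sorted for PDGFRB+ cells only, gave none.

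A capillary is a tube of single endothelial cells across which fat receives fatty acids, water and gases. In fat, lipoprotein lipase made by adipocytes is carried to the capillary lumen by GPIHBP1, where it frees fatty acids from triglyceride-rich particles. CD36 and fatty acid binding proteins then take these into and through the endothelial cell. CD300LG is a glycoprotein of the luminal side of capillaries and venules, CAR4 a membrane-anchored carbonic anhydrase, and AQP1 a water channel.

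Plates labeled with CD31pos held 510 of the 571 capillary EC (89.3%). Of the other 61, 54 were all the capillary EC of mouse 5 and came from plate 843, labeled PDGFRBpos only. Reads per capillary EC ran from 142641 to 2707304 with a median of 526150, over a median of 3565 genes. Ribosomal RNA took a median of 47.7% of these reads, from 33.2% in mouse 6/7 to 64.6% in mouse 1. Levels below are therefore CPM relative to reads outside ribosomal RNA, unless the selection is described or all gene reads are named. No name of a plate and well occurred more than once. Each mouse's capillary EC came from 1 or 2 plates and no plate held cells of both sexes, so that plate and mouse cannot be told apart. Reads of other cell types were present. In CPM over all gene reads, haemoglobin genes reached 1000 CPM in 13 capillary EC of mice 1, 2 and 6/7. In the same CPM, 3 capillary EC had 50 CPM of at least 2 of the lymphatic genes Lyve1, Ccl21a, Reln and Mmrn1. Of these 2 were in mouse 1 and 1 in mouse 5. Adipocyte genes, described below, summed to 100 CPM or more in 74.1% (mouse 5) to 87.4% (mouse 6/7) of capillary EC. Adipose stem cell genes did in 4.48%, 82.8%, 8.72%, 22.2% and 26.4% of the cells of mice 1, 8, 2, 5 and 6/7. Their part in the comparison with adipose stem cells below was not tested. Blood cell genes reached this sum in 0% (mouse 5) to 50.7% (mouse 1), and macrophage genes in 1.89% (mouse 6/7) to 67.2% (mouse 1). Lymphatic genes did in 8.81% (mouse 6/7) to 48.5% (mouse 1).

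Capillary EC made up 94.1% of blood EC (95% exact binomial interval, 91.9 to 95.8, counting error only). By mouse the share was 87.6% of 153 blood EC in mouse 1, 85.3% of 34 in mouse 8, 97.0% of 201 in mouse 2, 96.4% of 56 in mouse 5 and 97.5% of 163 in mouse 6/7. Both males were below the 3 females, but the sorts differed between plates and the selection sets this share, so it was not tested. On the CPM of the selection, Cd300lg and Car4 were both at 50 CPM or more in 454 capillary EC (79.5%), Cd300lg alone in 105 (18.4%) and Car4 alone in 12 (2.10%). Both genes passed in 58.2% of capillary EC of mouse 1 and 69.0% of mouse 8, against 85.6%, 88.9% and 88.7% of mice 2, 5 and 6/7. Few cells lay near the limit. The larger of the 2 genes was at 200 CPM or more in 546 of the 607 blood EC, between 25 and 50 CPM in 9 and between 50 and 100 CPM in 10. The capillary EC nearest to the limit had 51.97 and 54.5 CPM, and the nearest blood EC left out had 49.95 and 48.3 CPM.

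**Figure D1:**
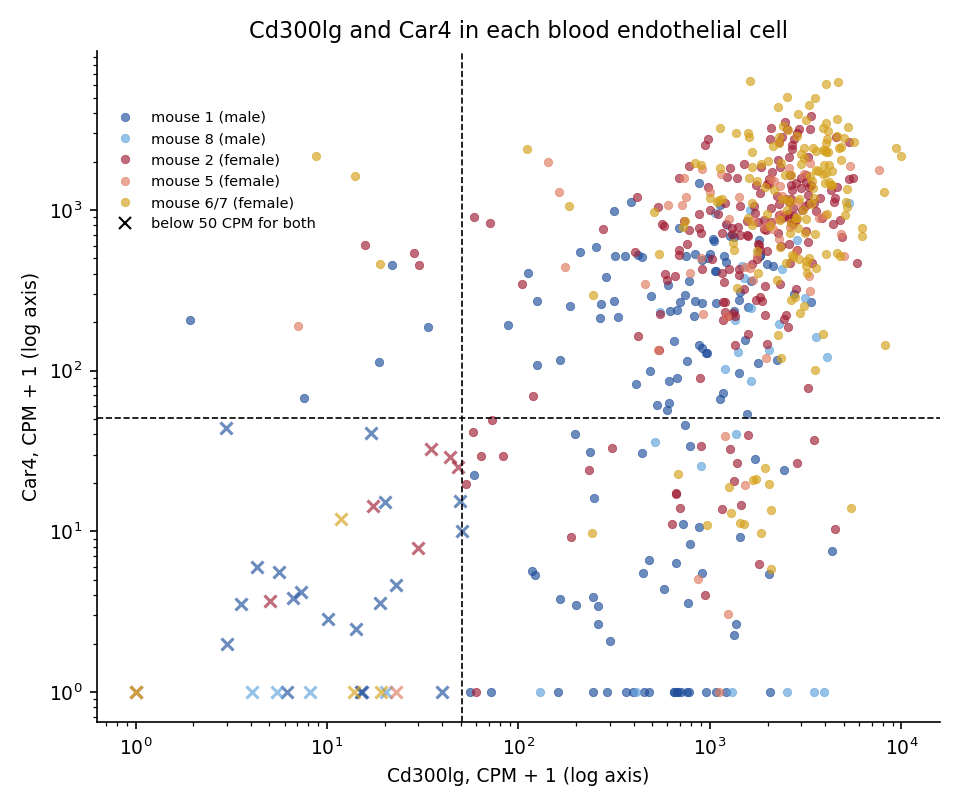
Each point is 1 of the 607 blood EC, by its Cd300lg (horizontal) and Car4 level (vertical), in CPM + 1 of all gene reads on log axes and colored by mouse; dashed lines mark 50 CPM. The 571 capillary EC (circles) lie right of or above a line, most of them right of and above both, while the 36 other blood EC (crosses) lie below both.

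The genes of the selection are given as a description only. Cd300lg (chromosome 11, 102041509 to 102055620, mm10) had 2364 and 4686 CPM in male mice 1 and 8 and 3599, 4578 and 4416 CPM in female mice 2, 5 and 6/7. Car4 (chromosome 11, 84957786 to 84966044) had 666 and 568 CPM in the males and 1750, 2036 and 2448 CPM in the females, with no overlap. Pecam1 had 2094 ± 812 CPM (SD, n = 5 mice), Kdr 1077 ± 251 CPM and Cdh5 838 ± 527 CPM. Pdgfra stayed at or below 2.41 CPM and Prox1 at or below 0.647 CPM in every mouse.

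For the 14 marker genes of capillary EC looked up in RefSeq promoter sequences (GRCm38.p6), 8 had an entry, and Gpihbp1, Fabp4, Fabp5, Sparcl1, Tcf15 and Cd300lg had none. The entries span 250 bases before to 50 after a transcription start. Of the 3 named markers, Car4 and Aqp1 could be shown, and they are printed because ETS factors, here Erg, Fli1, Ets1 and Ets2, were among the transcription factors of these cells described below. Capitals mark the ETS core AGGAAG or CGGAAG, searched on both strands, so that a match to the other strand reads CTTCCT or CTTCCG. The windows are chr11:84957504-84957803 and chr6:55336049-55336348, both on the plus strand. The Aqp1 window ends before the gene coordinates given below, so the RefSeq start differs from theirs.
Car4: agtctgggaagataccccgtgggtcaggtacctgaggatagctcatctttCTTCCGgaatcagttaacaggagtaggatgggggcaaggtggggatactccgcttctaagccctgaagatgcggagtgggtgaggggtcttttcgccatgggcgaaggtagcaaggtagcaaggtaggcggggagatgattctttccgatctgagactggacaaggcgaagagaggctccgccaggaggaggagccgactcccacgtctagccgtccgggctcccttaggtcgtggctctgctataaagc
Aqp1: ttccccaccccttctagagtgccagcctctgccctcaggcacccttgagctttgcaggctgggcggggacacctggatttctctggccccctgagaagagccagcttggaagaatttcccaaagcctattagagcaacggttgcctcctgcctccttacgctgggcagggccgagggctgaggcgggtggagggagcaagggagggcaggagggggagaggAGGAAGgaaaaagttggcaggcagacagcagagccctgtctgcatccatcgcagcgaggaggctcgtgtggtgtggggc
Each holds the core once. It was also in the promoters of Rgcc, Btnl9 and Timp4 and in 5 of 6 promoters of Sgk1, and in none of those of Cd36 and Meox2, which makes 10 of 13 entries. Of all 32851 promoters of this length, 46.5% hold it, and a match is a description of letters and not a binding site.

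Marker genes outside the selection were widespread in the capillary EC, but other blood EC held them too. In mouse 1 these had 385 CPM of Rgcc (733 CPM in capillary EC), 637 CPM of Timp4 (985 CPM) and 9591 CPM of Cd36 (19294 CPM). Gpihbp1 (chromosome 15, 75596628 to 75599481), the carrier of lipoprotein lipase, reached 50 CPM in 566 of 571 cells (99.1%), with 3049 and 2836 CPM in the males and 4061, 3196 and 3432 CPM in the females. Rgcc, a regulator of the cell cycle, reached 50 CPM in 87.2% of cells, Timp4, an inhibitor of matrix metalloproteinases, in 65.5% and Btnl9, a butyrophilin-like surface protein, in 63.2%. Aqp1 (chromosome 6, 55336432 to 55348555), the third marker of the name, was the most uneven. It reached 50 CPM in 69.9% of cells, its quartiles over cells were 28.8 and 5039 CPM, and its level was 2639 and 13178 CPM in males 1 and 8 and 3550, 3937 and 1748 CPM in females 2, 5 and 6/7. Mouse 8 stood above all others in Aqp1, with 50 CPM in 86.2% of its cells against 54.7% in mouse 6/7. In adipose stem cells (ASC), which should lack these genes, the same level was reached by 0 of 1570 cells for Gpihbp1, Btnl9 and Timp4, 9 for Aqp1 and 41 for Rgcc, at a median of 713508 reads per cell.

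Genes that mark other vessel segments ranged from absent to abundant. Of the arterial genes, the gap junction gene Gja5 reached 50 CPM in 0 of 571 cells (which allows a share of up to 0.525% of cells at that level), Gja4 in 6 and Sema3g in 19 (3.33%). Of the venous and post-capillary genes, the chemokine receptor Ackr1 reached it in 0 cells, the P-selectin gene Selp in 2 and von Willebrand factor, Vwf, in 14 (2.45%). Other genes of both lists were broadly present. Among the arterial genes, Sox17 was at 332 ± 102 CPM, Dll4 at 589 ± 613 CPM and Cxcl12 between 1436 and 5744 CPM. Among the venous and post-capillary genes, the apelin receptor gene Aplnr was at 319 to 1888 CPM, the ephrin receptor gene Ephb4 at 193 ± 82.1 CPM, the secreted glycoprotein gene Lrg1 at 18.9 to 608 CPM and the adhesion gene Icam1 at 34.2 to 648 CPM. Plvap, which forms the diaphragms of fenestrated and venous endothelium, was at 37.1 and 46.0 CPM in the males and 94.7, 377 and 136 CPM in the females, and reached 50 CPM in 9.81% of capillary EC, 10.6% of ASC and 22.2% of the 36 other blood EC. Dividing cells were rare, with Mki67 at 50 CPM in 1 capillary EC and Top2a in 2.

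Per kilobase of exon, Cd36 and Fabp4 stood near the top. The length was all annotated exons of a gene combined, 3.59 kb for Cd36, 1.416 kb for Cldn5 and 4.489 kb for Fabp4. Transcripts of these cells can be shorter than that, so the values and ranks depend on this length. Among 15878 protein-coding genes, Cd36 had 4711 ± 1103 CPM per kb (SD, n = 5 mice) and ranked between 1 and 5 in every mouse. Cldn5, the main tight junction claudin of endothelium, had 4238 ± 1421 CPM per kb (ranks 2 to 8). Fabp4, a fatty acid binding protein, had 3822 ± 1691 CPM per kb (ranks 3 to 15). B2m lay between these with 4029 ± 1822 CPM per kb (ranks 1 to 13). Cd300lg had 1435 ± 356 CPM per kb (ranks 14 to 38), Gpihbp1 1298 ± 184 (ranks 17 to 30) and Car4 760 ± 427 (ranks 25 to 122). Cd36, Cldn5 and Fabp4 did not differ beyond their spread, and their order depends on the length used. The haemoglobin gene Hba-a2, whose reads are shared with its near-identical copy Hba-a1, had the highest mean. It was 6224 ± 7444 CPM per kb, from 0.136 to 15689 among the mice. Over all gene reads, 13 cells had 1000 CPM or more of haemoglobin genes.

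To describe the remaining genes, capillary EC were compared with ASC of the same 5 mice, 1201 ASC in all, selected by Pdgfra of at least 100 CPM with Pecam1, Cdh5 and Kdr under 20 CPM in sum. Reads were summed per mouse and class and tested with edgeR (quasi-likelihood, mouse as a block), and calls needed an adjusted p below 0.05 and a change above 2.6-fold. Of 11919 genes, 1097 were higher in capillary EC (9.20%) and 1547 lower (13.0%), with a median log2 difference of −0.17. The 9 genes of the selection were not tested, but both classes were separated by gene expression, so that endothelial genes had to be higher, and the counts by list are a description of the cells. In mice 1, 2 and 6/7 capillary EC and ASC came mostly from different plates, where class and plate cannot be told apart for most cells, and in mice 5 and 8 from the same plate. This comparison was chosen after seeing the data, in place of one with other blood EC, of which only mouse 1 had 10 or more cells.

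**Figure D2:**
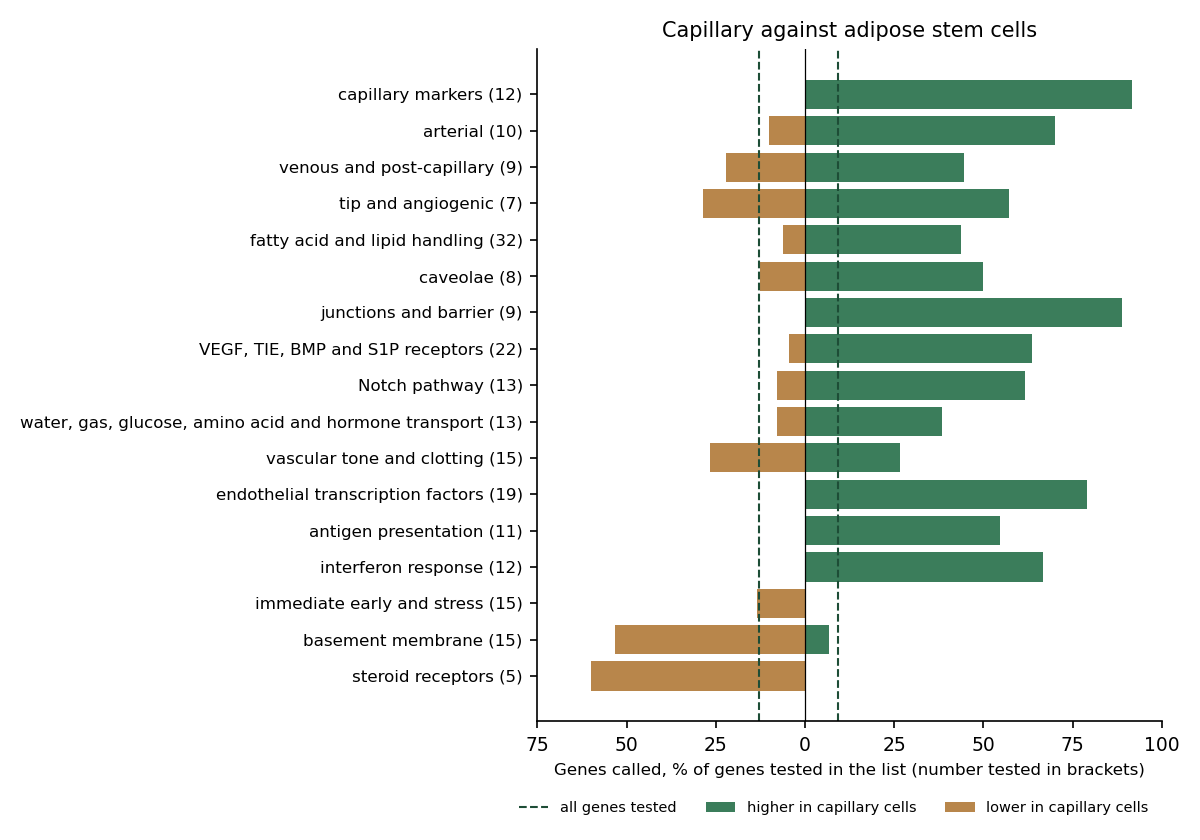
Bars give, for each gene list (number of genes tested in brackets), the percent of tested genes called higher (right) or lower (left) in capillary EC than in ASC of the same 5 mice; dashed lines mark 9.20% and 13.0%, the same over all 11919 genes. Lists of capillary markers, junctions and endothelial transcription factors extend furthest to the right, and basement membrane and steroid receptors to the left.

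Of 12 capillary markers 11 were higher, with a median log2 difference of 8.74, and only Sparcl1, a matricellular protein of both cell classes, was not called (3965 ± 1565 against 2514 ± 598 CPM). Of the genes of other vessel segments, 7 of 10 arterial genes tested were higher and 1 lower, and 4 of 9 venous and post-capillary genes were higher and 2 lower. Without the cells rich in adipocyte reads described below, 3 of 7 arterial genes were higher and 1 lower. For venous and post-capillary genes these counts were 2 and 3 of 8. The arterial genes Efnb2 and Unc5b were not called without mouse 1, nor Efnb2 without mouse 2. Lrg1 was not called without the cells rich in adipocyte reads. Of 8 caveola genes 4 were higher and 1 lower. Caveolin genes Cav1 (5742 ± 1561 against 168 ± 49.5 CPM; 4.94, SE 0.25, edgeR adjusted p = 2.4e-05) and Cav2 (1088 ± 282 against 4.83 ± 2.03 CPM), the coat gene Cavin2 and Ehd2, an ATPase of the caveolar neck, rose, and Emp2 fell by 5.35 on the log2 scale. Ehd2 was not called without mouse 2 or 6/7 or without the mouse as a block, and Emp2 without the cells rich in adipocyte reads described below.

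Fatty acid and lipid genes formed the largest list, with 14 of 32 genes tested higher, 2 lower and a median log2 difference of 0.79. This list shares genes with the capillary markers, among them Cd36, Fabp4, Meox2 and Tcf15, so the counts of both lists are not separate results. Uptake and binding genes were among the highest. Cd36 had 19294 and 10244 CPM in the males and 18126, 16666 and 20237 CPM in the females, against 12.7 to 59.1 CPM in ASC, and all capillary values lay above all ASC values (log2 difference 8.73, SE 0.32, edgeR adjusted p = 1.4e-05). Fabp4 had 14138, 7010, 27116, 16117 and 21407 CPM in mice 1, 8, 2, 5 and 6/7, and 28.6 to 113 CPM in ASC (7.85, SE 0.30, 1.4e-05 in the same test). Mouse 8 was the lowest in both genes. Scarb1, a receptor for high density lipoprotein, had 1486 ± 486 against 9.44 ± 5.24 CPM (7.22, SE 0.54), and Aqp7, a glycerol and water channel counted in the transport list, 1880 ± 550 against 1.74 ± 1.44 CPM (10.29, SE 0.82).

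Of the transcriptional regulators in the lipid list, Pparg, Meox2 and Tcf15 were higher and Rxra was not called, while Ppard, Ppara and Ppargc1a, at 0 to 5.04 CPM, were too low to be tested. Pparg, the nuclear receptor of lipid storage genes, was at 220 to 388 CPM in capillary EC and 5.96 to 38.0 CPM in ASC (3.83, SE 0.34, edgeR adjusted p = 0.0002). Meox2 and Tcf15, transcription factors known as partners in endothelial fatty acid transport, were at 449 ± 156 and 154 ± 75.5 CPM, and their log2 differences were 5.58 and 10.04. Genes of triglyceride breakdown also rose, with Pnpla2, the adipose triglyceride lipase, at 638 ± 150 against 36.8 ± 7.59 CPM, and Lipe, the hormone-sensitive lipase, at 453 ± 45.3 against 30.4 ± 16.3 CPM. Plin2, a lipid droplet coat protein, had 646 ± 380 against 235 ± 114 CPM and a log2 difference of 1.24 (SE 0.22), below the fold limit, and was not called. Of the other genes of triglyceride storage, Dgat2 was higher, with a call lost without the cells rich in adipocyte reads, and Dgat1 and Hilpda were not called.

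Vldlr, a receptor that takes up triglyceride-rich lipoproteins, was lower in capillary EC. It was at 0.160 to 5.90 CPM against 40.7 to 179.7 CPM in ASC (−6.90, SE 0.86, edgeR adjusted p = 0.00088). Lpl, lipoprotein lipase itself, had 436, 711, 987, 851 and 899 CPM in mice 1, 8, 2, 5 and 6/7. In ASC it ranged from 643 to 3070 CPM, so that both classes overlapped between mice, and the log2 difference of −1.24 (SE 0.27) did not pass the fold limit. Slc27a1, a fatty acid transport protein, at 2.45 to 83.8 CPM, and Acsl4, an acyl-CoA synthetase, at 6.09 to 35.7 CPM, were not called.

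**Figure D3:**
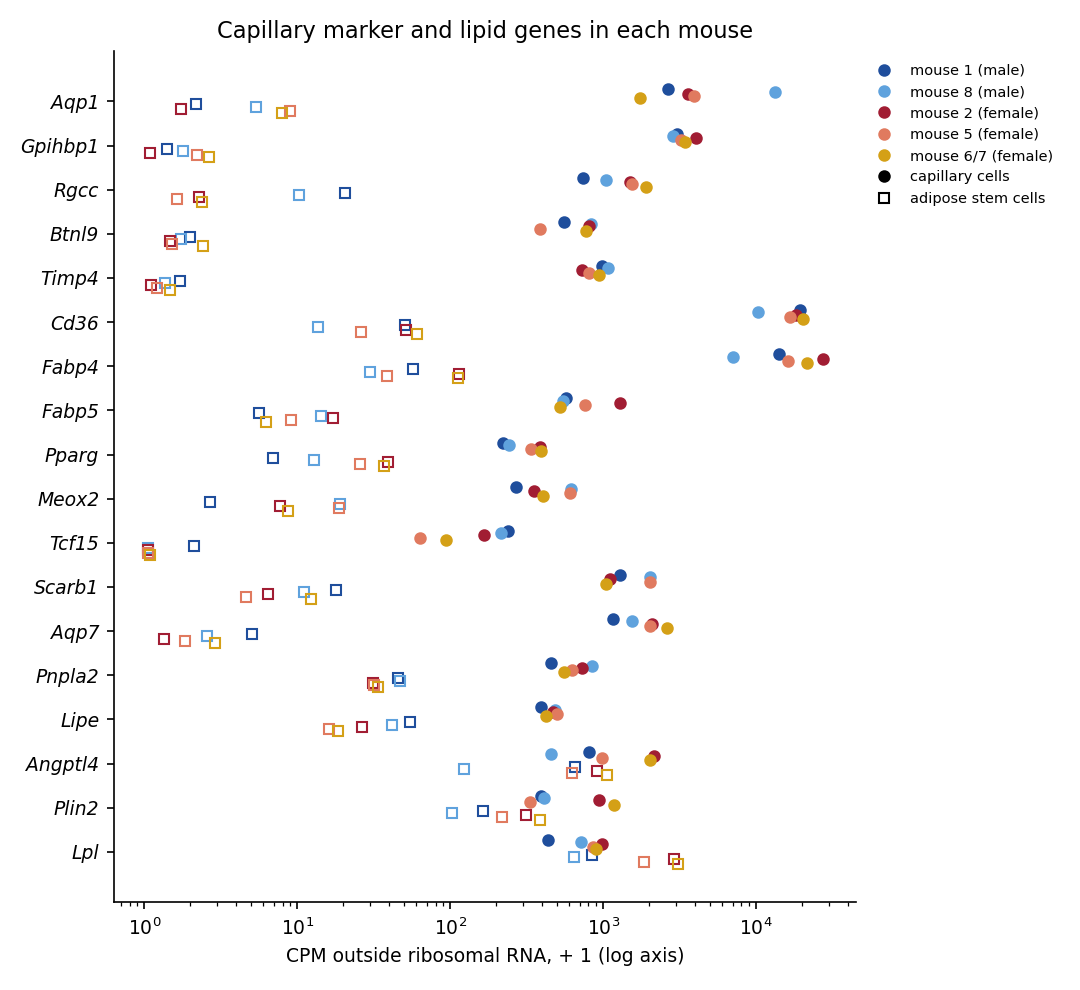
Points give the level of each gene in CPM outside ribosomal RNA, + 1 on a log axis, summed over capillary EC (filled circles) or ASC (open squares) of each of 5 mice (colors). For all genes from Aqp1 to Lipe, capillary EC of each mouse lie above the ASC of every mouse, while Angptl4, Plin2 and Lpl overlap.

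Adipocyte transcripts ran through the capillary EC of every mouse. The 10 adipocyte genes summed to 1810.5, 1431, 3511, 2682 and 3366 CPM in mice 1, 8, 2, 5 and 6/7, against 8.02 to 44.7 CPM in ASC, and 9 of 10 were called higher, all but Plin4. All 10 had reads in each mouse, including the hormone genes Adipoq (99.4 to 598 CPM) and Lep (15.6 to 95.9 CPM) and the serine protease Cfd (485 to 2076 CPM), so none of the defining markers was at 0. Per cell, the list without Acsl1 was under 100 CPM of all gene reads in 159 of 571 capillary EC (27.8%). The share ran from 17.6% of mouse 6/7 to 41.4% of mouse 8. Since ribosomal RNA differed between mice, this limit was not the same in each on the scale outside ribosomal RNA. When only these 159 cells were compared with ASC, 658 of 11184 genes were higher in place of 1097 of 11919. The median log2 difference over all genes was −0.60 in place of −0.17. This comparison left 12 cells in mouse 8 and 19 in mouse 5. For calls lost in it, here and in the other lists, the part of fewer cells and reads was not tested.

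The main lipid transport genes kept their levels in the 159 capillary EC with few adipocyte reads. Their difference from the other capillary EC, as mean of 5 mice on the scale of log2(CPM + 1), was −0.03 ± 0.14 (SD) for Gpihbp1, 0.01 ± 0.12 for Cd36, −0.20 ± 0.15 for Fabp4, 0.11 ± 0.16 for Scarb1 and 0.18 ± 0.52 for Aqp7. Fabp4 was lower in 5 of 5 mice. Pparg differed by −0.60 ± 0.28 and Lpl by −0.95 ± 0.27, each lower in 5 of 5 mice, and in these cells Pparg was still at 135 to 325 CPM, above the 5.96 to 38.0 CPM of ASC. Cfd, one of the genes that sort the cells here, differed by −5.78 ± 1.61. Against ASC, 11 of 31 lipid genes were then higher and 4 lower, and Abcg1, Acsl1 and Dgat2 lost their calls. The part of adipocyte reads in the other called genes was not tested.

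**Figure D4:**
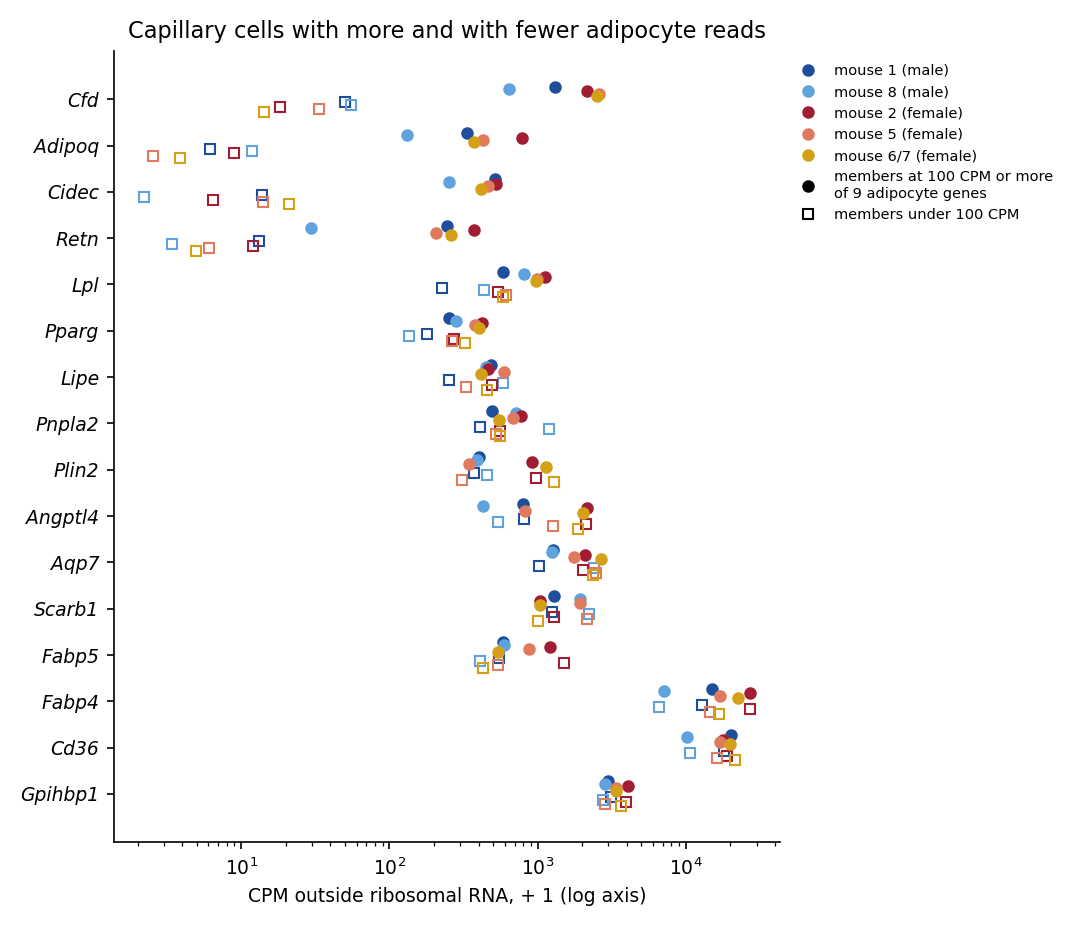
Levels in CPM outside ribosomal RNA, + 1 on a log axis, in the capillary EC of 5 mice (colors). The cells are split by whether 9 adipocyte genes summed to at least 100 CPM of all gene reads (filled circles) or less (open squares). Cfd, Adipoq, Cidec and Retn, which made the split, lie apart, Lpl and Pparg are lower in the open squares of each mouse, and Cd36 and Gpihbp1 lie at the same levels.

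Junction genes were higher in 8 of 9 tested. Cldn5 had 3393, 5062, 8773, 5876 and 6902 CPM in mice 1, 8, 2, 5 and 6/7 against 0.260 to 3.77 CPM in ASC, and Esam, an adhesion molecule of endothelial junctions, 2145 ± 451 against 1.01 ± 0.567 CPM. Mfsd2a, a lipid transporter known from the blood-brain barrier, was at 36.8 CPM in mouse 1 and at or under 0.160 CPM in the other mice. Of the transport list, 5 of 13 genes were higher and 1 lower. Besides Aqp1 and Aqp7 the higher genes were Slc28a2, a nucleoside carrier, at 479 ± 131 against 0.0987 ± 0.0631 CPM, Abcb1a, a drug efflux pump, at 96.7 ± 33.3 against 0.713 ± 0.640 CPM, and the scaffold gene Slc9a3r2. The glucose transporter gene Slc2a1 was at 20.8 to 47.5 CPM and was not called.

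The list of receptors for angiogenic and flow signals also held the ligand genes Bmp4 and Bmp6 and the signal genes Id1, Id3, Smad6 and Smad7. Of its 22 genes tested 14 were higher, among them Bmp6, which was not called without the cells rich in adipocyte reads. Only the sphingosine phosphate receptor S1pr3 was lower (0.206 to 2.28 CPM against 147 CPM in ASC on average). Of the receptor genes, S1pr1, the main endothelial receptor of this lipid, had 2986, 500.2, 2118, 1772 and 1948 CPM in mice 1, 8, 2, 5 and 6/7 and was lowest in mouse 8. Flt1, a decoy receptor for VEGF, was even at 588 ± 81.5 CPM, and Tie1 had 777 ± 426 CPM. The apelin receptor gene Aplnr reached 50 CPM in 41.0% of cells and had 319 to 1888 CPM, while its ligand gene Apln, known from angiogenic tip cells, reached that level in 53 cells (9.28%).

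Of the Notch pathway 8 of 13 genes were higher and 1, the DNA-binding partner gene Rbpj, was lower, at 8.98 to 35.1 CPM against 68.3 CPM on average in ASC. Receptors Notch1 and Notch4, ligands Dll1, Dll4 and Jag2, the fringe gene Mfng and the targets Hey1 and Nrarp made up the higher genes, and the target Hes1 had a log2 difference of 1.16, below the fold limit. Without the cells rich in adipocyte reads Rbpj and Hey1 were not called. Of 19 transcription factors of endothelium, 15 were higher and none lower, with a median log2 difference of 5.58. They included the ETS factors Erg (60.9 ± 30.1 CPM), Fli1 (304 ± 55.0 CPM), Ets1 and Ets2 and the SOX factors Sox7, Sox17 and Sox18 (1014 ± 228 CPM). The shear stress factors Klf2 and Klf4 were not called, with log2 differences of 0.53 and −0.41, and Gata2 was not called without mouse 1, 2, 5 or 6/7.

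Immune genes were also higher. Of 11 antigen presentation genes 6 were higher and none lower, all of them of the class I pathway or its proteasome and transporter, with H2-K1 at 3465 ± 925 against 755 ± 317 CPM (2.08, SE 0.20, edgeR adjusted p = 0.00029). The class II genes H2-Aa and H2-Ab1 were at 0 CPM in mouse 8 and at most 21.5 CPM in the other mice, highest in mouse 1, where macrophage genes also summed to the most (152 CPM against 12.2 to 76.8 CPM) and reached 100 CPM in 67.2% of capillary EC. All 8 macrophage genes had reads in mice 1 and 5, and in mouse 8 Adgre1 and Ptprc were at 0 CPM. Their part in the class II levels was not tested. Of 12 interferon response genes 8 were higher and none lower, among them Gbp4, a guanylate binding protein, at 276 ± 121 against 1.98 ± 1.75 CPM.

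Basement membrane genes went the other way, with 8 of 15 lower and 1 higher. Nid1 (390 ± 216 against 2284 ± 1363 CPM; −2.70, SE 0.25, edgeR adjusted p = 0.00023), the laminin chains Lamb1 and Lamc1, Col15a1 and Sulf1 were among the lower genes, and the laminin chain Lama5 was higher (213 ± 54.2 against 0.334 ± 0.205 CPM; 9.28, SE 0.58). Nid2, also lower, was not called without mouse 1, 2 or 6/7, and Lama4 not without mouse 2 or 6/7. Steroid receptor genes were lower in 3 of 5 tested. Esr1 was at 0 to 10.3 CPM against 16.2 to 169.5 CPM in ASC, and Pgr at 0 to 0.546 against 0 to 32.6 CPM, the last not called without mouse 2 or without the mouse as a block. Nr3c1, the glucocorticoid receptor, was not called, with 175 ± 67.0 against 119 ± 32.9 CPM.

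Of 15 genes for blood vessel tone and clotting 4 were higher and 4 lower. Nos3, endothelial nitric oxide synthase, had 669, 376, 262, 250.4 and 133 CPM in mice 1, 8, 2, 5 and 6/7 against at most 3.90 CPM in ASC. Ptgis, prostacyclin synthase (0.102 to 1.94 CPM against 258 to 373 CPM), Ace, the angiotensin-converting enzyme, and Plat, tissue plasminogen activator, were among the lower genes. Among immediate early genes none of 15 was higher and Fos (2798 ± 1032 against 6633 ± 2900 CPM) and Myc were lower, though Fos was not called with library totals alone, RLE factors or DESeq2 or without mouse 8, 2 or 6/7.

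The 10 genes of largest difference in each direction, each of the same sign in all 5 mice, were led by Nrarp, a Notch target with 13832 reads in capillary EC and 1 in ASC. C1qtnf9, a secreted relative of adiponectin, had 299 to 809 CPM against at most 0.123 CPM in ASC, and Tmem182 239 to 589 against at most 0.130 CPM. Robo4, a guidance receptor of endothelium, had 1490 ± 660.5 CPM and Depp1, a target of FOXO factors, 1458 ± 454 CPM. Slc28a2, Gpihbp1 and Dll4 were among them too. Usp43 had 0 ASC reads and was at least 3072-fold higher over all mice, counted against a floor of 3 reads, but it had 0.160 CPM in mouse 8. Odf3b had 6177 reads against 2. Among the lower genes Clec3b, tetranectin, had at most 0.642 CPM against 513 CPM on average in ASC and Mmp3, stromelysin, at most 0.637 against 374 CPM. Col6a5, a collagen VI chain, had 3 reads in capillary EC. Lrrn2, Lvrn, Epyc, Actn3 and Dio3 had none, which makes them at least 2828-, 713-, 762-, 662- and 309-fold lower over all mice against the same floor. Mouse 5 alone differed by only −0.87 for Lvrn and −0.65 for Epyc on the scale of log2(CPM + 1). Adora2b and Zfhx4 had 1 read each.

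Within mice, the list genes whose levels went together from cell to cell were mostly immediate early genes. Among 6441 pairs of 114 genes, 25 pairs had a Spearman rho of at least 0.3 across cells in each of the 5 mice, and 23 of them joined immediate early or stress genes. Egr1 and Zfp36 had a rho of 0.59 to 0.68 and Fos and Egr1 of 0.57 to 0.79. The other pairs were Adipoq with Cfd (0.35 to 0.60) and H2-K1 with H2-D1 (0.30 to 0.50), and the latter are close paralogs that can share reads. These values describe cells that share a plate and differ in depth. Egr1 was at 50 CPM or more in 99.3% of capillary EC of mouse 1 and 66.7% of mouse 5, and its median per cell was 2877, 1697, 3977, 451 and 1498 CPM in mice 1, 8, 2, 5 and 6/7.

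Only mouse 1 allowed a view of blood EC without the capillary markers, with 19 such cells against 134 capillary EC, and without a replicate nothing was tested. Their sums of reads gave 1528 CPM of Gpihbp1 (exact Poisson interval, counting error only, 1480 to 1576) against 3049 CPM (3029 to 3069) in capillary EC, and 154 CPM of Btnl9 (139 to 170.0) against 551 CPM (542 to 559). Aqp1 was at 2167 CPM (2111 to 2225) against 2639 CPM (2621 to 2658), and Fabp5 ran the other way, at 1137 CPM (1096 to 1179) against 565 CPM (557 to 574). Plvap was at 292 CPM (272 to 314) against 37.1 CPM (34.9 to 39.4), the transcription factor gene Gata2 at 857 CPM (822 to 894) against 75.2 CPM (72.1 to 78.4) and the artery gene Gja5 at 18.7 CPM (13.8 to 24.8) against 0.613 CPM (0.363 to 0.969). The lymphatic gene Ccl21a was at 10541 CPM against 1235 CPM. Over all gene reads, 1 of the 19 cells had 50 CPM of at least 2 lymphatic genes. Over all mice 29 of the 36 other blood EC had 50 CPM of Gpihbp1 or more (80.6%).

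Male and female capillary EC were compared with 2 male and 3 female mouse ids. The quasi-likelihood test of edgeR called 0 of 8215 genes (0% of those tested), with 667 at an unadjusted p below 0.05, while the likelihood ratio test of edgeR called 68 and DESeq2 127. The count rested on single mice, since 987 genes were called without mouse 1, where mouse 8 is the only male and is assumed to vary like the females. Males lay above all females in 9.07% of genes and below all females in 20.2%, or in 12.8% and 15.0% after TMM scaling. Library totals alone moved the median log2 difference from 0.01 to −0.74. Ribosomal RNA took a median of 64.6% and 57.8% of reads in males 1 and 8 and 43.7%, 57.2% and 33.2% in females 2, 5 and 6/7, and its part in the sex differences was not tested. All values that follow are a description.

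Sex chromosome genes matched the labels. Xist, the RNA that coats the inactive X chromosome, had 0.749 and 0.160 CPM in the males and 183 CPM, 183 CPM and 163 CPM in the females (−8.19, SE 0.77, edgeR adjusted p = 0.0535), and Ddx3y on the Y chromosome 48.6 and 112 CPM against at most 0.212 CPM. Besides them, Slc26a10, a gene of an anion transporter family, had 3.10 and 4.81 CPM in the males and 160, 227 and 231 CPM in the females (−5.47, adjusted p = 0.0587). In ASC of the same 5 mice Slc26a10 had 113 reads in all. Cdkn1a, the cell cycle inhibitor p21, was at 150 and 96.5 CPM against 620, 680 and 622 CPM. Slc6a6, the taurine transporter, was at 49.3 and 69.9 CPM against 192, 434 and 530 CPM, and Hcar1, the lactate receptor known from adipocytes, at 0.0341 and 0.160 CPM against 13.0, 34.9 and 21.9 CPM. For each of these genes both males lay on one side of the 3 females. They were chosen for a small p in this same comparison, so this separation is no further result. Other genes of small p, among them those higher in males besides Ddx3y, are not named.

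Some genes of sprouting, of the Notch pathway and of the basement membrane were above all females in both males. Of 7 tip and angiogenic genes 4 were, under either scaling, against 9.07% or 12.8% of all genes. Apln was at 302 and 324 CPM against 95.7, 11.6 and 10.3 CPM (3.23, edgeR adjusted p = 0.59), and Apln reached 50 CPM in 19.4% and 27.6% of male cells and in 7.69%, 1.85% and 1.89% of female cells. Angpt2, a TIE2 ligand, was at 141 and 326 CPM against 101, 40.5 and 56.6 CPM. In the Notch pathway 4 of 10 genes lay above all females, with Dll4 at 580 and 1644 CPM against 359, 138 and 224 CPM, Notch4 at 486 and 165 CPM against 112, 70.6 and 54.0 CPM and Nrarp at 139 and 132 CPM against 79.0, 23.6 and 13.6 CPM. In the basement membrane list 7 of 14 did, with a median log2 difference of 1.21, among them Col4a2 (1560 and 1081 CPM against 802, 423 and 339 CPM), Col15a1 and Nid1. None of these genes was called, and the adjusted p of those named ran from 0.587 to 0.596.

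Lipid genes lay on both sides between the sexes. After TMM scaling Gpihbp1 differed by −0.05 (SE 0.37) on the log2 scale and Cd36 by −0.11 (SE 0.37), less than the spread between mice. Fabp4 was at 14138 and 7010 CPM against 27116, 16117 and 21407 CPM (−0.83, edgeR adjusted p = 0.63), and the triglyceride storage gene Dgat2 was at 179 and 381 CPM against 134, 153 and 84.4 CPM. Of 28 lipid genes 4 lay above and 8 below all females, against 9.07% and 20.2% of all genes. After TMM scaling these were 6 and 5, against 12.8% and 15.0% of all genes. Of 10 adipocyte genes 3 lay below all females in both males, against the same 20.2% of all genes. The summed list was 1810.5 and 1431 CPM in males against 3511, 2682 and 3366 CPM in females.

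**Figure D5:**
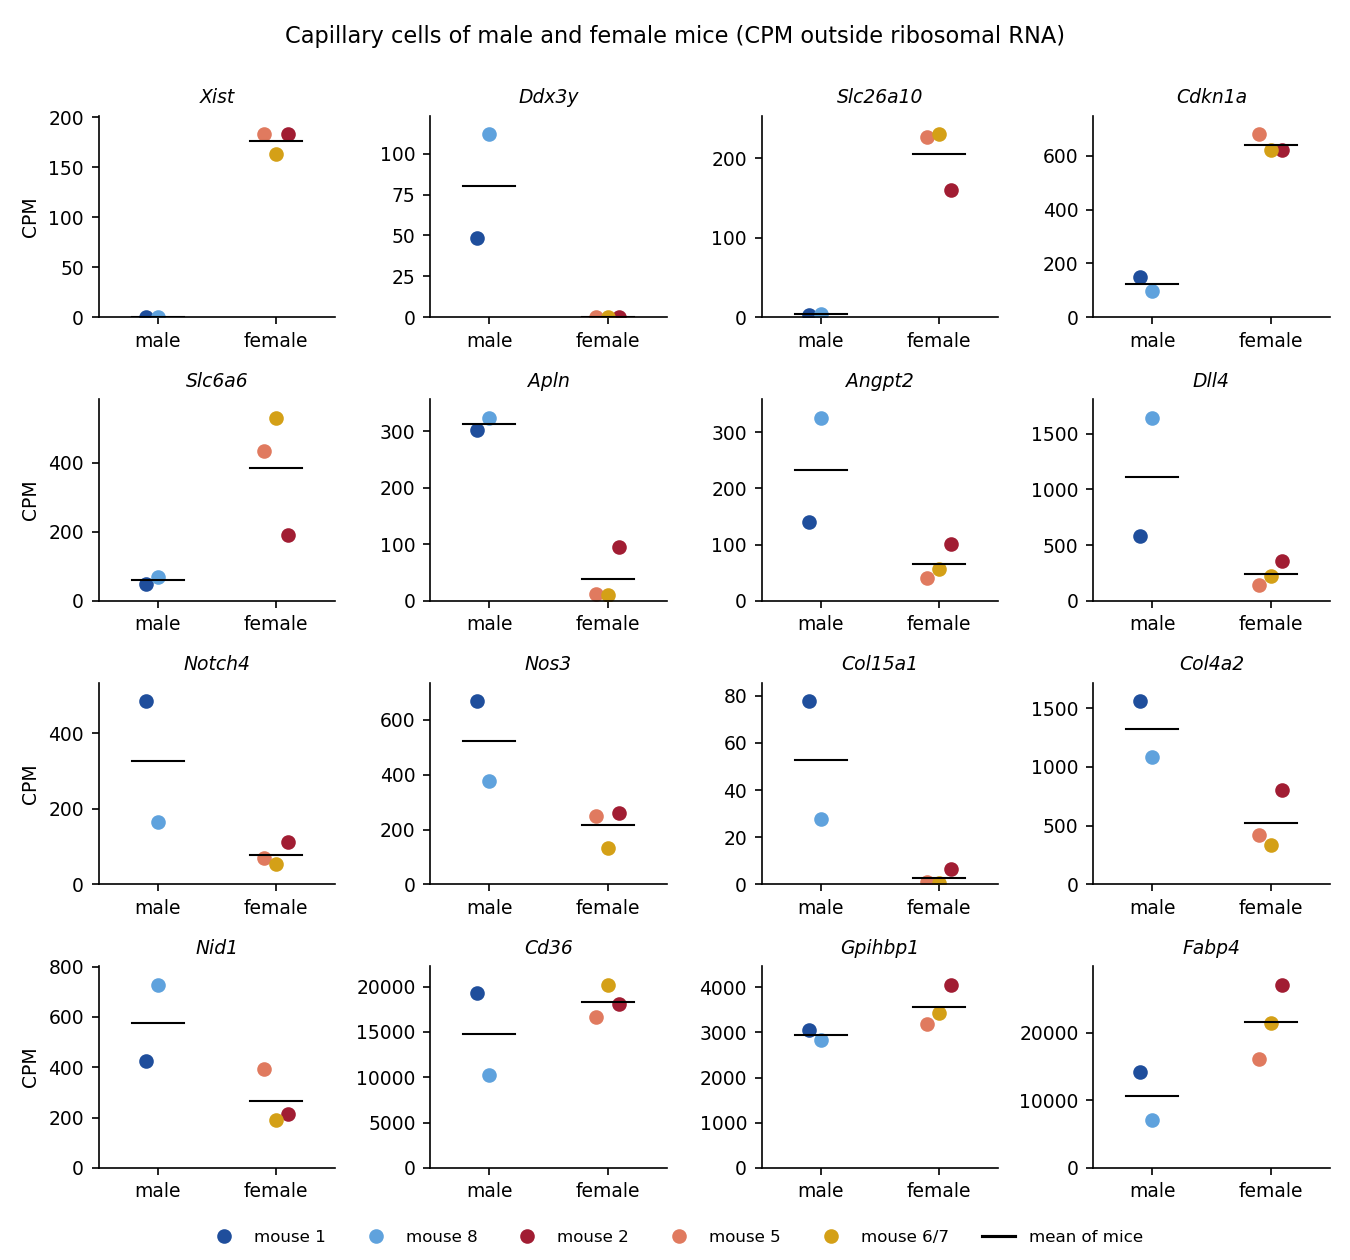
Each panel gives the level of 1 gene in CPM outside ribosomal RNA, with each axis from 0, in capillary EC summed per mouse for 2 male and 3 female mouse ids (colors); black lines are means. Xist, Ddx3y, Slc26a10, Cdkn1a, Slc6a6, Apln and Col15a1 separate the sexes, while Cd36 overlaps, and edgeR called none of them.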

How the data were processed

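Single cells of pgWAT stromal vascular fraction, sorted on 11 plates from 7 mouse ids, were sequenced with Smart-seq2. The authors deposited whole-number read counts per gene and cell, not normalized and without molecular identifiers, and counts are not independent molecules. The sources used here name bcl2fastq, STAR and Salmon and the mm10 genome with ERCC spikes, with no versions. The table held 3261 cells with 149931 to 3548334 reads each, ERCC reads included, while reads per cell elsewhere are gene reads without them. ERCC rows (72, 1.98% of reads) were left out, and 23432 of 23507 gene rows were matched to GENCODE names.

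CPM of the selection was taken over all gene rows, and printed levels over rows outside 11 ribosomal RNA genes. CPM over all gene rows was also used for 3 limits per cell. These were 100 CPM of adipocyte genes for the split, 1000 CPM of haemoglobin genes and 50 CPM of at least 2 lymphatic genes. Counts of the selected cells were summed per mouse, since cells of one mouse are not replicates, for mice with at least 10 cells. edgeR 4.0.16 in R 4.3.3 (TMM factors, quasi-likelihood F test, Benjamini-Hochberg adjustment) tested genes with over 600 reads in at least 2 sums, and a call needed an adjusted p below 0.05 and a fold change above 2.6. The 9 genes of the selection were not tested. The comparison with ASC had the mouse as a block, since both classes came from the same animals. Alternatives were RLE factors or library totals alone, other filters, the likelihood ratio test, DESeq2 1.42.0, each mouse left out, other thresholds, cells thinned to 100000 reads, and cells or plates left out. The models were tested first on simulated data with 200 genes changed 8-fold. The model of the sexes recovered 77 of them (38.5%) with 6 wrong calls. The model against ASC recovered 128 (64%) with 4 wrong calls. The mouse ids of the labels were the replicates, with the plates of one mouse summed and mouse 6/7 counted as 1, and levels are given as mean ± SD of mice. Intervals of shares and counts are 95% exact intervals and cover counting error only.

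The genes named against ASC were the 10 of largest log2 difference in each direction among those called. These had a mean of at least 10 CPM in the higher class and one sign in every mouse. Between the sexes, where none was called, some of the 10 of smallest p in each direction were named. Of those higher in males this was only Ddx3y. Gene models with only a clone or Gm name were left out. Members of 27 gene lists were named too. The cells, lists and tests were chosen with earlier results of these data known. Promoter sequences are from RefSeq (GRCm38.p6). The planned comparison with blood EC lacking both markers could not be fitted and its values are given for 1 mouse. A few members of the lists are not reported here.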

Additional observations from a re-analysis of the deposited data

Results flagged for a closer look

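For 40 genes, those of largest difference between capillary EC and ASC and the called genes of the capillary marker and lipid lists, the differences of the 5 mice were searched for 1 mouse apart from the other 4 by Dixon's criterion at the 95% level, which chance meets in about 1 of 20 groups. Values are differences of log2(CPM + 1), capillary EC minus ASC. In Odf3b mouse 5 had 2.47, while the others had 4.73 to 5.47. In Lrrn2, a leucine-rich repeat gene with no read in capillary EC, mouse 1 had −4.57 and the others −5.73 to −5.50. In Adora2b, an adenosine receptor, mouse 8 had −3.10 and the others −5.53 to −5.22. Each gene kept its direction in all 5 mice.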

How the results depend on the processing

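Between the sexes, the count of 0 genes called became 3 with library totals alone, 68 with the likelihood ratio test, 127 with DESeq2, and 1 both when Cd300lg and Car4 were both required and when each cell was thinned to 100000 reads. Leaving out a mouse gave 0 to 987, of which 987 was without mouse 1 and 1 without mouse 8. Against ASC, 2644 genes were called, 1574 after thinning, and 1950 to 2652 with a mouse left out. Higher and lower calls numbered 1097 and 1547, or 658 and 1479 without the cells rich in adipocyte reads. The fit without the mouse as a replicate block called 2626. Of 162 called genes in the lists or named, 138 kept their call under every alternative that tested them, and none reversed. The share of capillary EC among blood EC was 74.8% with both genes required and 96.3% with ribosomal RNA left out of CPM, which kept 522 of the 571 cells. Thinning kept 554 of the 571 cells in the selection, and in the sums per mouse it left 5372 of 11919 genes to test.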

Other observations

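The next 2 counts are in CPM over all gene reads. Outside the lists described, 13 capillary EC with at least 1000 CPM of haemoglobin genes reached up to 493296 CPM of them, in mouse 6/7. Of the 36 other blood EC, 5 had 50 CPM of at least 2 lymphatic genes, against 3 of 571 capillary EC. Pericyte genes summed to at most 241 CPM in capillary EC of any of the 5 mice, and Rgs5 was the 1 of 6 such genes called higher than in ASC.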
